A study of Mus musculus with 11 samples.

Results

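The genes described are 10 chromatin genes of mouse embryos: 8 encode subunits of Polycomb repressive complex 2 (PRC2), namely Ezh1, Ezh2, Eed, Suz12, Jarid2, Aebp2, Mtf2 and Rbbp4, and the other two, Kdm6a and Kdm6b, encode H3K27 demethylases. They were taken by name from a table of 49585 genes, and all 10 were found and passed the filter on low values. PRC2 methylates lysine 27 of histone H3, and the trimethylated form, H3K27me3, marks silenced developmental genes. Ezh1 and Ezh2 are the alternative catalytic subunits, Eed binds the finished mark and stimulates the enzyme, and Suz12 is the scaffold to which the remaining subunits attach. Kdm6a (also called UTX) and Kdm6b (JMJD3) remove the mark through a JmjC domain. In the early embryo, H3K27me3 inherited from the egg can silence maternal alleles without DNA methylation, and the marks carried by the paternal genome are largely lost after fertilization.

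Embryos of strain C57BL/6 were made by round spermatid injection (ROSI), in which a haploid germ cell that has not yet elongated replaces the sperm, or by intracytoplasmic sperm injection (ICSI). The study as titled asks how H3K27me3 inherited from the father bears on genome activation after ROSI. The 11 libraries comprised 2 of ROSI zygotes and 3 for every other combination of injection and stage, made with a stranded SMART-seq kit from 1 ng of total RNA. ROSI embryos alone were activated in 5 mM strontium chloride for 1 to 2 h in calcium-free CZB medium, and all embryos were cultured in KSOM, so the paternal cell and the activation cannot be told apart. The labels give neither embryos per library nor collection times, and do not say that replicates are separate cultures, so the p-values weigh a difference against a library-to-library spread that may be technical.

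Levels are in TPM, the length-scaled share of a gene among all transcripts of a library. A lower share and a rise of other transcripts cannot be told apart, nor can fewer cells and less RNA per cell. Depths recovered from the TPM ran from 8.48e+06 reads in ICSI 2-cell replicate 1 to 8.59e+07 reads in ROSI zygote replicate 2 (2.05e+07 to 3.29e+07 reads in the other 2-cell libraries), and the members rested on 604 to 50364 reads per library. For Kdm6a the recovered reads were not whole numbers (1048.13 in ICSI 2-cell replicate 1), so its read numbers are approximate. The 12 genes chosen as markers of oocyte and early embryo all averaged at least 1 TPM in every group. Their sum was 9219 and 10022 TPM in ROSI zygotes and 10648 to 12030 TPM in ICSI zygotes, without overlap, and its part in the zygote differences below was not tested. The largest gaps were in Dppa3 (3805 TPM in ROSI, 4853 TPM in ICSI zygotes) and H1foo (739 and 1255 TPM). Padi6 (663 and 607 TPM), Bmp15 (1622 and 1591 TPM) and Nlrp5 (906 and 905 TPM) were not lower in ROSI zygotes, and the rest of the list had lower means there. The 10 cumulus cell markers summed to 11.1 to 15.5 TPM in zygotes and 31.4 to 52.9 TPM in 2-cell embryos, where 2 of them after ROSI and 3 after ICSI averaged at least 1 TPM. Most of the sum at the 2-cell stage was Amhr2 (43.8 TPM after ROSI, 33.2 TPM after ICSI), whereas Cyp19a1 averaged 10.3 and 12.3 TPM in ROSI and ICSI zygotes and 0.816 and 1.67 TPM in 2-cell embryos. The 12 spermatid markers summed to 88.2 and 168 TPM in ROSI zygotes against 27.7 to 34.1 TPM in ICSI zygotes, and to 40.2 to 60.1 TPM against 12.1 to 19.5 TPM at the 2-cell stage. Smcp, of the sperm mitochondrial capsule, was listed at 0 in all ICSI libraries, whereas Prm2 averaged 20.4 TPM in ICSI and 29.9 TPM in ROSI zygotes. Not every marker was higher after ROSI. At the 2-cell stage Tssk6 averaged 2.45 TPM after ROSI and 3.31 TPM after ICSI, Prm1 0.158 and 0.355 TPM, and Acrv1 0.607 and 0.610 TPM. The rest of the list had higher means after ROSI there. The part of spermatid RNA in the results below was not tested.

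RefSeq (GRCm38.p6) gave promoters for 9 of the 10 members, all but Kdm6b. The 250 bases before the start are shown for 4 PRC2 genes with different courses over the first division: Ezh2 and Eed, which fell, Mtf2, which rose, and Suz12, which did not pass in either direction. Capitals mark CCAAT (the box bound by NF-Y), GGGCGG (the Sp box) and TTTCCCGC (an E2F site), searched on both strands, and each line reads 5′ to 3′ on the strand of the gene.
Ezh2, chr6:47595031-47595280, minus strand: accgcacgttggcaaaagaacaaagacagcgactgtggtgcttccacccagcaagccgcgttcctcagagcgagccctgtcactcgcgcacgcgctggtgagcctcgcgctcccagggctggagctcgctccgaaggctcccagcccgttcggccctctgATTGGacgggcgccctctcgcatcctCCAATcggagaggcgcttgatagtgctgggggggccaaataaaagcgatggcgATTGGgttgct
Eed, chr7:89980977-89981226, minus strand: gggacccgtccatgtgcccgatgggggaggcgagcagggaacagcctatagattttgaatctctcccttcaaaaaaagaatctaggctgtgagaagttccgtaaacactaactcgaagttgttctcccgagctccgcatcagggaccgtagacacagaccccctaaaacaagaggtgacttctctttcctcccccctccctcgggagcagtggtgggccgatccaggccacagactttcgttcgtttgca
Suz12, chr11:79992856-79993105, plus strand: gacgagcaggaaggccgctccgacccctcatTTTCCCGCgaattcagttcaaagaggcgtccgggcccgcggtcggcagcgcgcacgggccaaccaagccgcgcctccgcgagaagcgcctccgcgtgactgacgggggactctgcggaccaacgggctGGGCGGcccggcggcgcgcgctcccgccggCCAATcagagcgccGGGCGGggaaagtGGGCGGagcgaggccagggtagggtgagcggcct
Mtf2, chr5:108065424-108065673, plus strand: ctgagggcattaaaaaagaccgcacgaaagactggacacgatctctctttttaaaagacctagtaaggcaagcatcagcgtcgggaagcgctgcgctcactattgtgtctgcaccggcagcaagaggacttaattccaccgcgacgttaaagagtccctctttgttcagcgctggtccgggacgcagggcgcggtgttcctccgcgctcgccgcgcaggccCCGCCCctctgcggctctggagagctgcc
The Ezh2 window held 3 CCAAT boxes and no GGGCGG. The Suz12 window held TTTCCCGC, CCAAT and GGGCGG, the Mtf2 window shown held GGGCGG alone of these motifs, and Eed held none of them. RefSeq gives Mtf2 a second start, whose window (chr5:108077915-108078164) is not shown and held CCAAT and no GGGCGG. Over the 13 windows of the 9 genes, 6 held CCAAT and 8 held GGGCGG, against 33.8% and 32.7% of all 32851 windows of that length. TTTCCCGC was in 1 of the 13 and in 0.895% of all. The second E2F form searched, TTTGGCGC (0.417% of all), the ETS site CCGGAAG (6.91%), the CRE TGACGTCA (1.55%) and the NRF1 palindrome (0.782%) were in none of them. TATAAA was in 1 of the 13, a window of Jarid2, and in 12.4% of all. Of the windows printed, Suz12 was the richest in G and C (73.6%), followed by Ezh2 (63.6%), Mtf2 (59.2%) and Eed (54.4%), beside a median of 52.4% over all windows. These matches describe the letters of the windows, and the files hold no measurement of binding there.

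In zygotes the core subunits Suz12, Ezh2 and Eed were abundant. Suz12 had the highest level of the 10 genes, at 321 TPM after ICSI and 295 TPM after ROSI, and stood at the 98.1st percentile of the 21938 genes tested in both. Ezh2 followed at 285 and 262 TPM, then Eed at 199 and 175 TPM. The demethylases came next, Kdm6b at 158 and 142 TPM and Kdm6a at 120 and 107 TPM, so both kinds of enzyme were well represented in the RNA of the 1-cell embryo. Jarid2 and Ezh1 averaged 56.6 and 44.3 TPM after ICSI, and Mtf2, Rbbp4 and Aebp2 lay between 18.9 and 33.7 TPM in every zygote library.

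**Figure D1:**
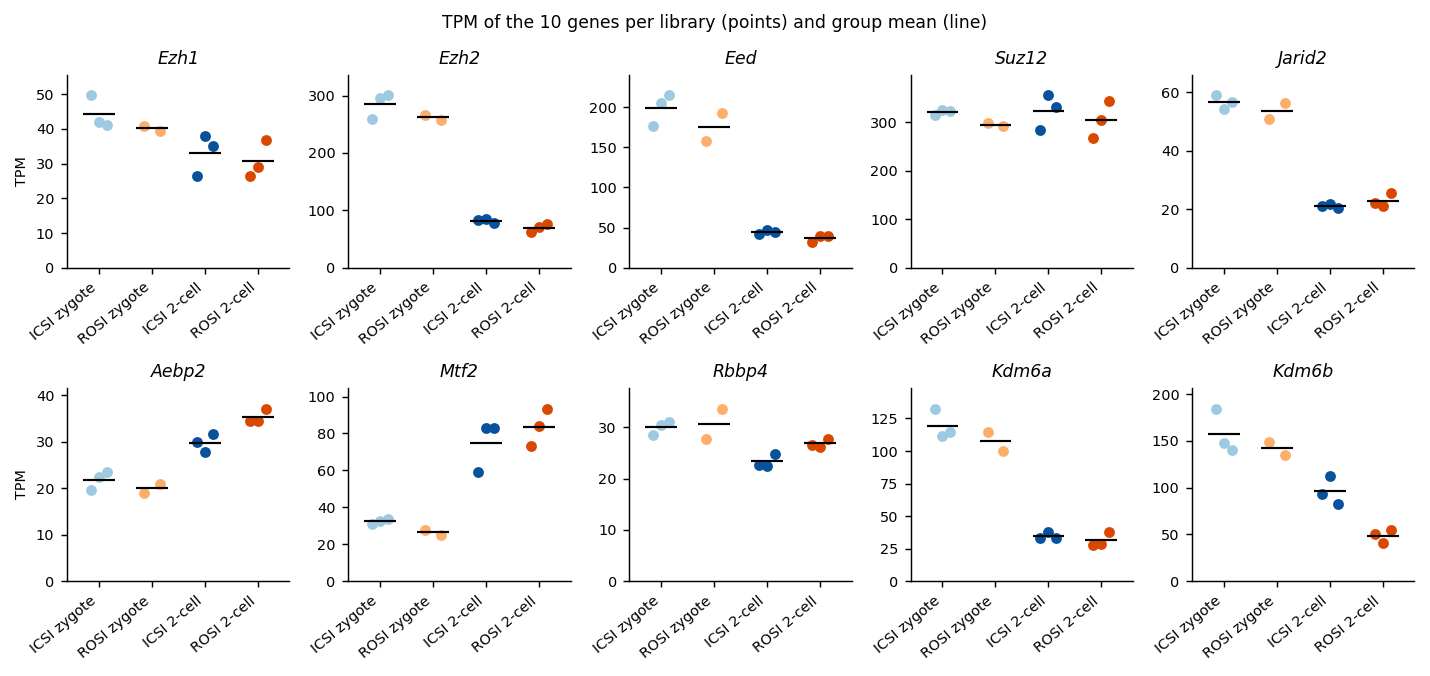
TPM (linear axes from 0) of the 10 genes in each of the 11 libraries (points), with the group mean (line), for ICSI and ROSI zygotes and 2-cell embryos. Kdm6b is the gene whose ROSI 2-cell libraries (40.4 to 54.4 TPM) lie farthest below the ICSI 2-cell libraries (82.7 to 113 TPM), while Mtf2 and Aebp2 are higher in every 2-cell library than in every zygote library.

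Between ROSI and ICSI zygotes none of the 10 genes passed (limma adjusted p of 0.923 for Mtf2 and 1 for each of the others) and none had an unadjusted p under 0.05. Over all genes 0.146% passed, and 1392 of 21938 had an unadjusted p under 0.05. The differences ran from -0.28 (SE 0.16) for Mtf2 to 0.03 (SE 0.11) for Rbbp4 in log2(TPM + 1), and 9 of 10 were below 0. Their median was -0.13, beside -0.06 over all genes tested. The intervals allow modest differences. For Kdm6b the difference of -0.14 had a 95% interval from -0.52 to 0.24, and for Eed that of -0.19 from -0.47 to 0.10. The sizes depended on the scaling. With TPM rescaled to protein-coding genes the differences ran from -0.19 for Mtf2 to 0.12 for Rbbp4. Ezh2 then stood at -0.02, Suz12 at -0.03 and Kdm6b at -0.04, and the median of all genes tested at 0.01.

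Library by library, Mtf2, which encodes a Polycomb-like protein that guides PRC2 to CpG islands, stood at 27.7 and 25.2 TPM in ROSI zygotes and at 31.1, 32.3 and 33.6 TPM in ICSI zygotes. Suz12 stood at 298 and 292 TPM against 315, 324 and 324 TPM, and Ezh1 at 41.0 and 39.4 TPM against 49.7, 41.9 and 41.2 TPM. In these 3 genes both ROSI libraries lay below all ICSI libraries, as they did for 19.4% of all genes tested. The other 7 genes overlapped between the groups.

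At the 2-cell stage Kdm6b was lower in ROSI than in ICSI embryos. The gene (chr11:69398508-69413675, minus strand, mm10) encodes the demethylase that is induced in many cell types by differentiation and stress signals. It stood at 50.4, 40.4 and 54.4 TPM in ROSI embryos and at 92.8, 113 and 82.7 TPM in ICSI embryos. Every ROSI library was below every ICSI library, and the ROSI mean of 48.4 TPM (SD 7.18, n = 3) was 0.504 times the ICSI mean of 96.1 TPM (SD 15.2, n = 3). The log2 difference was -0.97 (SE 0.15, 95% interval -1.31 to -0.64, limma adjusted p = 0.00681). It was the 1 of the 10 genes that passed, and 9.51% of all genes did (4.58% lower, 4.93% higher). With any 1 library left out the difference lay between -1.07 and -0.85 with limma adjusted p from 0.00754 to 0.0255. When the 6 libraries of 2-cell embryos were fitted alone it had an adjusted p of 0.0598.

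By its mean TPM, Kdm6b stood at the 94.5th percentile of the genes tested in ICSI 2-cell embryos and at the 88.6th in ROSI 2-cell embryos. The 8 markers of the 2-cell program summed to 416 to 617 TPM in ROSI and 859 to 895 TPM in ICSI 2-cell embryos. These markers were low in the same libraries as Kdm6b, and their part in the result was not tested. The antisense gene Kdm6bos shares 286 bases with the exons of Kdm6b (4.11% of them). It averaged 0.282 TPM after ROSI and 0.408 TPM after ICSI, far below Kdm6b in both groups. The strand setting of the counting is not known, and the part of antisense reads in the Kdm6b values was not tested.

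The genes whose course over the 11 libraries was most like that of Kdm6b were Kcnh1, Spry4 and Pla2g6, out of 8607 named genes averaging at least 5 TPM. Likeness was the root mean square difference between log2(TPM + 1) values centred on each gene, and it was 0.089, 0.110 and 0.111. By this choice the genes share the course of Kdm6b, its gap at the 2-cell stage included. Kcnh1, a potassium channel gene, averaged 30.0 TPM in ROSI and 54.1 TPM in ICSI 2-cell embryos. Spry4, which encodes an inhibitor of receptor tyrosine kinase signalling, averaged 245 and 415 TPM, and Pla2g6, which encodes a phospholipase, 3.98 and 8.19 TPM.

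The X-linked demethylase Kdm6a (chrX:18162575-18279936, plus strand), which also acts in the Kmt2c and Kmt2d complexes, did not pass. It stood at 28.1, 28.5 and 37.5 TPM in ROSI and 33.0, 37.5 and 32.9 TPM in ICSI 2-cell embryos, so the groups overlapped. The log2 difference was -0.14 (SE 0.13), with a 95% interval from -0.43 to 0.14.

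None of the core subunits passed at the 2-cell stage, although Ezh2 and Eed stood at lower values in ROSI embryos. Ezh2 stood at 62.0, 70.7 and 76.8 TPM against 82.7, 85.0 and 78.7 TPM, and the 3 ROSI libraries lay below the 3 ICSI libraries. Its difference was -0.24 (SE 0.10, 95% interval -0.45 to -0.02, limma adjusted p = 0.152). With median-ratio scaling between libraries it was -0.34 and passed (limma adjusted p = 0.0315). Eed stood at 32.6, 39.5 and 39.1 TPM against 41.7, 46.7 and 44.5 TPM, again without overlap, a difference of -0.25 (SE 0.12, limma adjusted p = 0.192). Suz12 (-0.08, SE 0.11) and Ezh1 (-0.10, SE 0.16) overlapped between the groups.

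Aebp2, an accessory subunit, and Rbbp4, which belongs to the core, were at higher values in ROSI 2-cell embryos and did not pass either. Aebp2, a zinc finger protein that stabilizes the complex together with Jarid2, stood at 34.6, 34.5 and 37.1 TPM against 29.9, 27.8 and 31.6 TPM (log2 difference 0.24, SE 0.10, limma adjusted p = 0.146). Rbbp4, a histone-binding protein that PRC2 shares with other chromatin complexes, stood at 26.7, 26.2 and 27.8 TPM against 22.7, 22.4 and 24.9 TPM (0.20, SE 0.10, limma adjusted p = 0.230). In both genes all ROSI libraries were above all ICSI libraries. Groups without overlap were thus found for 5 of the 10 genes, 2 with ROSI above (Aebp2 and Rbbp4) and 3 with ROSI below (Kdm6b, Ezh2 and Eed), and for 27.3% of all genes tested (15.4% above, 11.8% below). Jarid2 (0.11, SE 0.09) and Mtf2 (0.16, SE 0.14) overlapped.

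**Figure D2:**
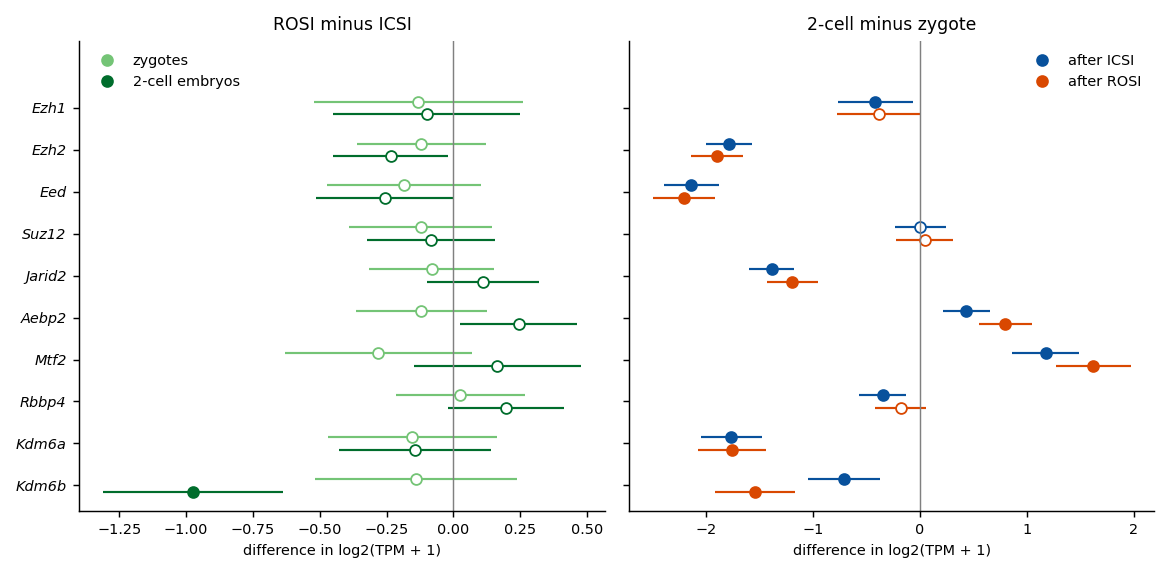
Differences in log2(TPM + 1) for the 10 genes with 95% intervals of the limma fit, on the left ROSI minus ICSI in zygotes and 2-cell embryos, on the right 2-cell minus zygote after ICSI and after ROSI. Filled points passed (adjusted p under 0.05 over all genes) and open points did not: on the left Kdm6b at the 2-cell stage (-0.97) is the 1 filled point, and on the right Eed reaches -2.14 and -2.21 and Mtf2 1.17 and 1.62.

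From the zygote to the 2-cell stage the subunits of PRC2 went separate ways. After ICSI 7 of the 10 genes fell and 2 rose, and after ROSI 5 fell and 2 rose. Such calls were common at this step: 68.1% of all genes passed after ICSI (35.0% lower, 33.0% higher) and 67.9% after ROSI (32.3% lower, 35.6% higher). The median of the 10 genes was -0.56 after ICSI and -0.79 after ROSI, beside 0.00 and 0.19 over all genes tested. Libraries of the stages did not overlap for 9 genes after ICSI and 8 after ROSI, and for 72.2% and 76.1% of all genes.

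Eed had the lowest difference of the 10 genes in both kinds of embryo. It stood at 177, 205 and 215 TPM in ICSI zygotes and at 41.7, 46.7 and 44.5 TPM in ICSI 2-cell embryos. After ROSI it stood at 158 and 192 TPM and then at 32.6, 39.5 and 39.1 TPM. Every 2-cell library was below every zygote library, the lower mean being 0.223 times the higher after ICSI and 0.212 times after ROSI. Eed fell by 2.14 (SE 0.12, limma adjusted p = 4.18e-08) after ICSI and by 2.21 (SE 0.13, limma adjusted p = 9.09e-08) after ROSI on the log2 scale.

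Ezh2 stood at 260, 296 and 301 TPM in ICSI zygotes and at 82.7, 85.0 and 78.7 TPM one division later. After ROSI it went from 267 and 257 TPM to 62.0, 70.7 and 76.8 TPM. The catalytic subunit thus fell in both kinds of embryo, by 1.78 (SE 0.10) after ICSI and 1.90 (SE 0.11) after ROSI on the log2 scale, both passing. Jarid2, a cofactor that brings PRC2 to its targets and stimulates it, went from 58.9, 54.2 and 56.7 TPM to 21.1, 21.7 and 20.4 TPM after ICSI, and from 50.7 and 56.2 TPM to 22.1, 21.1 and 25.5 TPM after ROSI. Its log2 differences were -1.38 (SE 0.09) and -1.19 (SE 0.11), both passing.

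Suz12, the scaffold, did not pass in either kind of embryo. It stood at 315, 324 and 324 TPM in ICSI zygotes and at 283, 355 and 331 TPM in ICSI 2-cell embryos, with differences of 0.00 (SE 0.11, 95% interval -0.24 to 0.24) after ICSI and 0.04 (SE 0.12, 95% interval -0.23 to 0.31) after ROSI. Of the summed TPM of the 10 genes it made up 25.3% in ICSI zygotes and 42.4% in ICSI 2-cell embryos, and 25.6% and 44.1% after ROSI. The call for Suz12 depends on the scaling: with TPM rescaled to protein-coding genes it rose by 0.54 after ICSI and 0.52 after ROSI, and with quantile normalization by 0.62 and 0.73, all 4 passing.

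Mtf2 and Aebp2 rose. Mtf2 went from 31.1, 32.3 and 33.6 TPM to 59.0, 82.9 and 83.2 TPM after ICSI, and from 27.7 and 25.2 TPM to 73.2, 84.0 and 93.5 TPM after ROSI. The 2-cell mean was 2.32 times the zygote mean after ICSI and 3.16 times after ROSI, and Mtf2 passed with rises of 1.17 (SE 0.14) and 1.62 (SE 0.16) on the log2 scale. Tmed5, a protein-coding gene on the opposite strand, shares 395 bases with the exons of Mtf2 (6.93% of them) and went from an average of 5.57 to 63.8 TPM after ICSI and from 3.66 to 61.9 TPM after ROSI; the strand setting of the counting is not known, and the part of such reads was not tested. Aebp2 went from 19.6, 22.4 and 23.4 TPM to 29.9, 27.8 and 31.6 TPM after ICSI and rose by 0.43 (SE 0.10), and by 0.80 (SE 0.11) after ROSI. In both genes every 2-cell library was above every zygote library.

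Ezh1 and Rbbp4 had small differences whose calls were not stable. Ezh1, the catalytic subunit that predominates in many resting cells, passed after ICSI with -0.42 (SE 0.16, limma adjusted p = 0.0354). After ROSI it stood at -0.39 (SE 0.18, limma adjusted p = 0.0723). Without ICSI zygote replicate 1, ICSI zygote replicate 2 or ICSI 2-cell replicate 1 its limma adjusted p after ICSI was 0.119, 0.0549 and 0.133. After ROSI it passed without ROSI 2-cell replicate 3 (limma adjusted p = 0.0213) and without ICSI 2-cell replicate 1 (limma adjusted p = 0.0380), with median-ratio scaling (-0.45, limma adjusted p = 0.00629) and with array weights (-0.39, limma adjusted p = 0.0333). Rbbp4 passed after ICSI with -0.35 (SE 0.10, limma adjusted p = 0.00811) and did not after ROSI, where it stood at -0.18 (SE 0.11, limma adjusted p = 0.164). It shares 8.94% of its exon bases with Sync on the other strand, which averaged 0.387 TPM in ICSI zygotes and 5.38 TPM in ICSI 2-cell embryos. With protein-coding TPM both genes changed sign, Ezh1 to 0.10 and 0.08 and Rbbp4 to 0.17 and 0.29, the last of these passing. That rescaling moved the median of all genes from 0.00 to 0.20 after ICSI and from 0.19 to 0.32 after ROSI.

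Both demethylases fell in both kinds of embryo. Kdm6a went from 133, 112 and 114 TPM to 33.0, 37.5 and 32.9 TPM after ICSI, and from 115 and 99.9 TPM to 28.1, 28.5 and 37.5 TPM after ROSI. The log2 differences were -1.76 (SE 0.13) and -1.75 (SE 0.14), both passing, and all 2-cell libraries were below all zygote libraries. Kdm6b stood at 185, 148 and 140 TPM in ICSI zygotes and at 149 and 135 TPM in ROSI zygotes, above all 2-cell libraries of the same kind. It fell by 0.71 (SE 0.15, limma adjusted p = 0.00166) after ICSI and by 1.54 (SE 0.17, limma adjusted p = 1.23e-05) after ROSI. The fall after ICSI was 0.18 with protein-coding TPM (limma adjusted p = 0.250) and 0.17 with quantile normalization (limma adjusted p = 0.361), neither passing, while the fall after ROSI passed with both, at differences of -1.08 and -1.15.

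**Figure D3:**
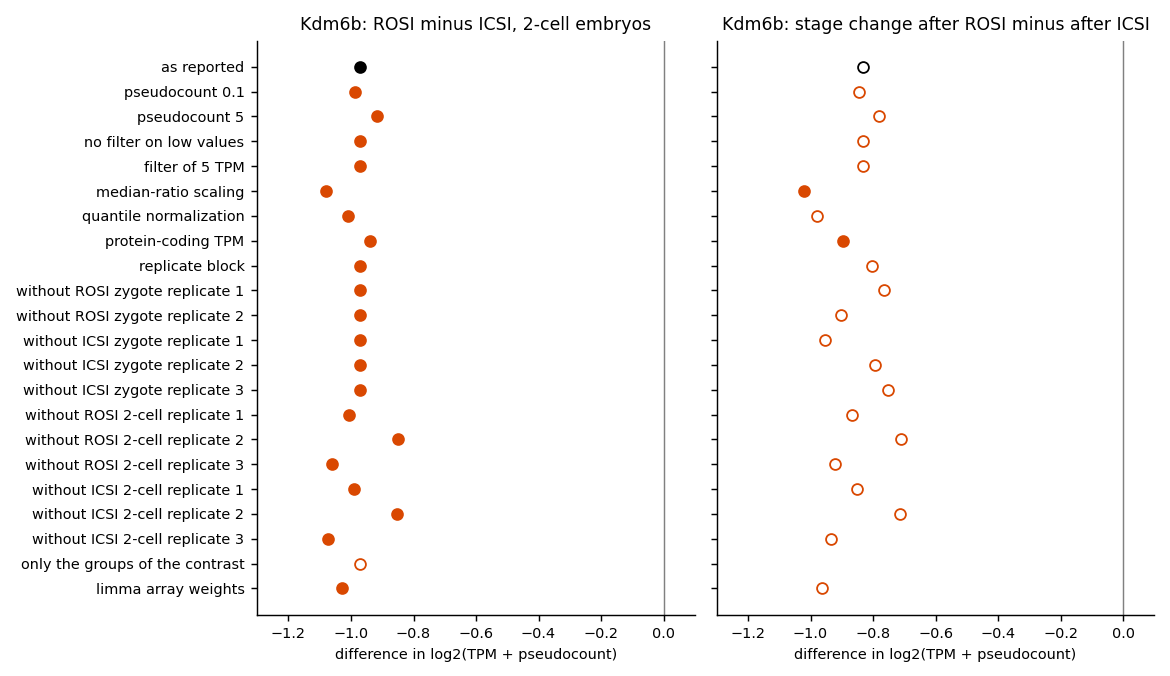
Difference of Kdm6b between ROSI and ICSI 2-cell embryos (left) and between its stage changes after ROSI and after ICSI (right), in log2(TPM + pseudocount), as reported (black) and under each other setting (orange); filled points passed. On the left the values run from -1.08 to -0.85 and all but the fit of the 2-cell libraries alone passed, and on the right those with median-ratio scaling (-1.02) and protein-coding TPM (-0.90) passed.

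The difference between the stage changes was tested directly. For Kdm6b the change after ROSI was lower than that after ICSI by a log2 difference of -0.83 (SE 0.23, 95% interval -1.34 to -0.33), which did not pass (limma adjusted p = 0.143, unadjusted p = 0.00418). It passed with median-ratio scaling (-1.02, limma adjusted p = 0.0416) and with protein-coding TPM (-0.90, limma adjusted p = 0.0347). None of the 10 genes passed this test, 2 of them (Kdm6b and Aebp2) had an unadjusted p under 0.05, and 0.0182% of all genes passed, with 3303 of 21938 at an unadjusted p under 0.05. Aebp2 differed by 0.36 (SE 0.15, limma adjusted p = 0.288) and Mtf2 by 0.45 (SE 0.21, limma adjusted p = 0.354), both with the larger change after ROSI. For Ezh2 (-0.12), Eed (-0.07), Suz12 (0.04), Ezh1 (0.03) and Kdm6a (0.01) the intervals lay within -0.49 and 0.55.

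Paralogs were also compared as ratios within each library, which need no scaling between libraries. The log2 ratio of Kdm6b to Kdm6a, each as TPM + 1, was 0.47, 0.40 and 0.29 in ICSI zygotes and 0.37 and 0.43 in ROSI zygotes. In ICSI 2-cell embryos it was 1.46, 1.56 and 1.30, and in ROSI 2-cell embryos 0.82, 0.49 and 0.52. All ICSI 2-cell libraries were above all others, and the 2-cell groups differed by -0.83 on the log2 scale (exact permutation p = 0.1, 2-sided, the smallest that 3 libraries against 3 can give; 0.267 adjusted over 8 tests). The stage change of this ratio was 1.06 after ICSI (exact permutation p = 0.1) and 0.21 after ROSI (exact permutation p = 0.2, the smallest that 2 against 3 can give here, since the 2-sided p is the 1-sided p doubled).

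The log2 ratio of Ezh2 to Ezh1 averaged 2.66 (SD 0.26, n = 3) in ICSI zygotes and 2.67 (SD 0.0023, n = 2) in ROSI zygotes. It averaged 1.30 (SD 0.27, n = 3) in ICSI and 1.16 (SD 0.11, n = 3) in ROSI 2-cell embryos. Ezh2 was above Ezh1 in every library, and the ratio was lower in every 2-cell library than in every zygote library, with stage changes of -1.36 after ICSI (exact permutation p = 0.1) and -1.51 after ROSI (exact permutation p = 0.2). ROSI and ICSI did not differ beyond the spread, by 0.01 in zygotes and -0.13 in 2-cell embryos (exact permutation p = 1 and 0.7).

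**Figure D4:**
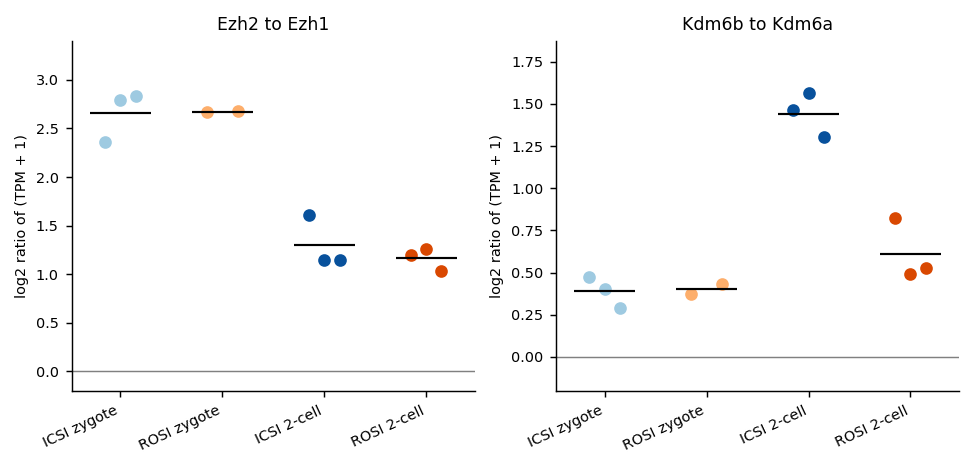
Log2 ratio of (TPM + 1) of Ezh2 to Ezh1 (left) and of Kdm6b to Kdm6a (right) in each library (points) with the group mean (line). The ratio of Ezh2 to Ezh1 drops from about 2.66 to 1.30 after ICSI and from 2.67 to 1.16 after ROSI, and the ratio of Kdm6b to Kdm6a is highest in the 3 ICSI 2-cell libraries (1.30 to 1.56).

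The order of the 10 genes changed with the stage. Suz12 was first in all 4 groups. Ezh2 and Eed ranked 2 and 3 in zygotes of both kinds, and 3 and 5 in 2-cell embryos of both kinds. Kdm6b ranked 4 in zygotes, 2 in ICSI 2-cell embryos and 4 in ROSI 2-cell embryos, where Mtf2 ranked 2. In ICSI zygotes Eed (177 to 215 TPM) and Kdm6b (140 to 185 TPM) overlapped. In ICSI 2-cell embryos Kdm6b (82.7 to 113 TPM), Ezh2 (78.7 to 85.0 TPM) and Mtf2 (59.0 to 83.2 TPM) overlapped, so their order there is within the spread. In ROSI 2-cell embryos Kdm6b lay below all libraries of Ezh2 and Mtf2.

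The genes with profiles most like those of the other members that passed in any comparison were picked by the same measure. They share the course of their member by this choice. For Ezh2 they were Patj, Snw1 and Msh3, with root mean square differences of 0.062, 0.067 and 0.069 over the 11 libraries. For Eed they were Nlrp14, Rars2 and Ggct (0.087, 0.094 and 0.096), and for Kdm6a Net1, Map2k1 and Psg20 (0.070, 0.074 and 0.078). Snw1, which encodes a splicing and transcription cofactor, averaged 322 TPM in ICSI zygotes and 88.9 TPM in ICSI 2-cell embryos. Nlrp14, of an oocyte gene family, averaged 643 and 130 TPM. For Jarid2 the nearest were Akt1s1, Nucb1 and Ppp2r2d (0.068, 0.085 and 0.088), for Ezh1 Emsy, N4bp2 and Tmem214 (0.075, 0.078 and 0.082) and for Rbbp4 Preb, Mrto4 and Ube2e3 (0.076, 0.092 and 0.094). For Mtf2 they were Setd2, the H3K36 methyltransferase gene, Stag2, of cohesin, and Cpd (0.074, 0.084 and 0.093), and for Aebp2 they included Pno1 and Rock2 (0.077 and 0.095).

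The wider pathway was followed in 43 genes of 4 lists, of which 40 were tested: other PRC2 subunits and cofactors, subunits of PRC1 (the complex that ubiquitinates H2A and binds H3K27me3), the H2A deubiquitinase complex, and partners of Kdm6a. Between ROSI and ICSI none of the 40 passed in zygotes, where 0.146% of all genes did. Of the 40, 1 had a limma unadjusted p under 0.05, as had 1392 of all 21938 genes. None of them passed at the 2-cell stage, where 9.51% of all genes did. There 14 had a limma unadjusted p under 0.05, as had 5857 of all 21938 genes. The genes of smallest p within each of the 4 lists at the 2-cell stage were Phf1, a second Polycomb-like protein (270 against 366 TPM, difference -0.43, SE 0.18, limma adjusted p = 0.160), Phc1 of PRC1 (20.5 against 28.4 TPM, -0.47, SE 0.14, limma adjusted p = 0.0621), Asxl1 of the deubiquitinase (44.3 against 54.4 TPM, -0.29, SE 0.09, limma adjusted p = 0.0783) and Ncoa6, a partner of Kdm6a (150 against 203 TPM, -0.44, SE 0.13, limma adjusted p = 0.0637). All 4 were lower after ROSI, whereas the lists went both ways. In the order named, the list medians were -0.14, 0.10, 0.095 and -0.15, beside 0.04 over all genes tested. In zygotes the genes of smallest p within each list were Phf19 (-0.25), Rybp (-0.30), Asxl2 (-0.10) and Rbbp5 (-0.13). There the list medians were 0.005, -0.010, -0.015 and -0.054, beside -0.061 over all genes tested. The stage changes differed between ROSI and ICSI in none of the 40, and in 0.0182% of all genes. Of the 40, 5 had a limma unadjusted p under 0.05, as had 3303 of all 21938 genes. The smallest p in each list was that of Phf19 (difference 0.51), Cbx8 (0.74), Asxl1 (-0.28) and Rbbp5 (0.51).

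Across the first division 18 of the 40 pathway genes fell and 11 rose after ICSI, and 17 fell and 11 rose after ROSI. Of all genes 68.1% passed after ICSI (35.0% lower, 33.0% higher) and 67.9% after ROSI (32.3% lower, 35.6% higher). Of the 7 other PRC2 genes 3 fell in both, and 1 rose after ROSI. AU022751, the mouse gene of the PRC2 inhibitor Ezhip, averaged 1498 TPM in ICSI zygotes and 122 TPM in ICSI 2-cell embryos, and differed by -3.59 (SE 0.23) after ICSI and by -3.87 (SE 0.26) after ROSI. Rbbp7, the histone-binding paralog of Rbbp4, averaged 1316 and 234 TPM after ICSI and fell by 2.49 (SE 0.13), and by 2.73 (SE 0.14) after ROSI. In ICSI zygotes Rbbp7 was thus far above Rbbp4 at 30.0 TPM. Phf19, another Polycomb-like gene, fell by 1.22 (SE 0.14) and 0.71 (SE 0.16) from 4.37 and 3.49 TPM, while E130012A19Rik, the gene of the cofactor Epop, rose after ROSI from 0.462 to 1.38 TPM. E130012A19Rik met the filter of 1 TPM through 2-cell libraries only, its highest value in an ICSI zygote being 0.761 TPM and in a ROSI zygote 0.731 TPM. Its call is thus not independent of the filter. The median of the list was -0.35 after ICSI and -0.32 after ROSI.

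Of 21 PRC1 subunits tested 8 rose and 9 fell after ICSI (33.0% and 35.0% of all genes did), and 8 rose and 8 fell after ROSI (35.6% and 32.3% of all genes), with medians of -0.15 in both. Pcgf5, of a variant PRC1, had the largest rise, from 7.62 to 102 TPM after ICSI (3.56, SE 0.14) and by 3.53 (SE 0.16) after ROSI. Bcor (2.17 and 2.44) and L3mbtl2 (1.99 and 1.82) rose too. Kdm2b, which brings variant PRC1 to CpG islands, fell from 206 to 34.4 TPM after ICSI (-2.55, SE 0.11), and its partner Pcgf1 from 622 to 113 TPM (-2.46, SE 0.11), with -2.64 and -2.49 after ROSI. Rybp (-1.35) and Phc1 (-1.17) were next after ICSI, and Scmh1 (-1.72) and Phc1 (-1.63) after ROSI.

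In the deubiquitinase complex Asxl1 fell by 1.75 (SE 0.09) after ICSI and 2.03 (SE 0.10) after ROSI, Asxl2 rose by 1.31 (SE 0.18) and 1.65 (SE 0.20), and Bap1, the enzyme, passed after ICSI alone with a fall of 0.40 (SE 0.11). Of 9 genes tested around Kdm6a, 4 fell and 2 rose after ICSI (35.0% and 33.0% of all genes did). After ROSI 5 fell and 1 rose (32.3% and 35.6% of all genes). Rbbp5 (-2.47 and -1.96), Dpy30 (-2.43 and -2.04) and Ash2l (-0.97 and -0.96), of the core shared by the H3K4 methyltransferases, fell in both. Wdr5 fell too (-0.82 after ICSI), and after ROSI its mean went from 204 to 128 TPM. Kmt2d fell after ROSI (-0.69) and averaged 114 and 116 TPM in ICSI zygotes and 2-cell embryos. Uty, the Y-linked paralog of Kdm6a, averaged 0.124 TPM in ICSI zygotes and 3.64 TPM in ICSI 2-cell embryos, and 0.0806 and 2.62 TPM after ROSI. Uty met the filter of 1 TPM through 2-cell libraries only, so its rise is not independent of the filter. Ncoa6 rose by 0.65 (SE 0.13) after ICSI.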

How the data were processed

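RNA was sequenced from C57BL/6 embryos in 11 libraries of 4 groups, and the members and gene lists were chosen with earlier results of these data known. The authors deposited TPM per gene, 1 column per library. Per the submitters' processing notes, fastp, Bowtie2, STAR 2.7.4a and featureCounts were used with build mm10, without stated roles, and the annotation, strand setting and filters are not given in the sources used here. Read numbers were recovered by dividing TPM times GENCODE M21 exon length by the value of 1 read in that library. Of the values under 1000 reads, 86.2% to 89.4% lay within 0.01 of a whole number.

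The 21938 of 49585 genes that reached 1 TPM in 2 or more libraries were fitted on log2(TPM + 1) with limma 3.58.1 in R 4.3.3 (4 group means, eBayes with trend, Benjamini-Hochberg at 0.05), checked on simulated data. Confidence intervals are 95% intervals of this fit. All 10 members were named. Of each pathway list, up to 4 passing genes per direction with the largest difference were named, or otherwise the gene of smallest p; some genes that these rules name are not reported here. Exact tests used scipy 1.17.1, tables python 3.11.15 with numpy 2.4.6 and pandas 2.3.3, and figures matplotlib 3.10.9. Alternatives were pseudocounts of 0.1 and 5, 2 filters, 3 other scalings, array weights, a replicate block, the groups of a contrast alone, and each library left out.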

Additional observations from a re-analysis of the deposited data

How the results depend on the processing

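Over 5 comparisons, 10 genes and 20 or 21 other settings, 976 of 1040 differences kept direction and side of the threshold. Of the others, 11 kept direction and passed only in the alternative, and 10 kept direction and lost their call. The remaining 43 changed sign and are counted by that alone, also where the call changed. In the comparison of 2-cell embryos 2 of the 10 genes passed with median-ratio scaling and 0 with the 2-cell libraries alone, against 1, and of the stage changes 1 differed with median-ratio scaling and 1 with protein-coding TPM, against 0. Without 1 library the numbers passing were 0 in zygotes, 1 at the 2-cell stage, 8 to 9 over the stages after ICSI, 7 to 8 after ROSI and 0 for the difference of changes.

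Sign changes were found for Jarid2 in zygotes (0.0178 with quantile normalization, 0.0122 with protein-coding TPM), Suz12 at the 2-cell stage (0.0671 with quantile normalization) and over the stages after ROSI (-0.0259 with median-ratio scaling), and Ezh1 and Rbbp4 over the stages with protein-coding TPM (0.10 and 0.17 after ICSI, 0.0795 and 0.29 after ROSI). For the difference of stage changes, median-ratio scaling gave -0.15 for Suz12, -0.15 for Ezh1, -0.0137 for Rbbp4 and -0.18 for Kdm6a. Quantile normalization gave -0.0885 for Ezh1 and -0.12 for Kdm6a, protein-coding TPM -0.0154 for Suz12, -0.0246 for Ezh1 and -0.0470 for Kdm6a, and array weights -0.10 for Ezh1, 0.00246 for Eed and -0.0646 for Kdm6a. The cause was not tested.

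Without 1 library, the differences that changed sign ranged from -0.11 to 0.16 for Rbbp4 in zygotes, -0.18 to 0.00570 for Suz12 and -0.25 to 0.00304 for Ezh1 at the 2-cell stage, and, for Suz12 over the stages, -0.0688 to 0.0948 after ICSI and -0.0443 to 0.13 after ROSI. For the difference of changes they ranged from -0.0522 to 0.13 for Suz12, -0.12 to 0.13 for Ezh1, -0.21 to 0.0736 for Eed and -0.12 to 0.11 for Kdm6a. The ratio of Ezh2 to Ezh1 ranged from -0.14 to 0.10 in zygotes and -0.21 to 0.0212 at the 2-cell stage, and that of Kdm6b to Kdm6a from -0.0360 to 0.0565 in zygotes.

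Same-numbered libraries correlated, as deviations from group means, by 0.33 and 0.22 between the zygote groups and by -0.0432 to 0.0574 between all others. Different numbers between the zygote groups gave -0.33 to 0.21. The 2 ROSI zygote libraries deviate from their mean by equal and opposite amounts, so the zygote values cannot decide on pairing. The numbers were not taken as pairs, and a replicate block was fitted as an alternative. With a replicate block the number of the 10 genes passing stayed within 1.5 times in each comparison, and the sign changed for Ezh1 (-0.0139) and Kdm6a (-0.0130) in the difference of changes. The genes passing over the whole table in zygotes went from 32 to 4 with the block, 0 with the zygotes alone and 311 with array weights, and ranged from 4 (without ICSI zygote replicate 3) to 84 (without ROSI zygote replicate 2). At the 2-cell stage they went from 2087 to 85 with the 2-cell libraries alone, 1366 without a filter, 3412 with median-ratio scaling, 3263 with quantile normalization, 3557 with protein-coding TPM, 918 without ROSI 2-cell replicate 2, 1059 and 1075 without ICSI 2-cell replicates 2 and 1, and 1356 and 1354 without ICSI zygote replicates 2 and 3. For the difference of changes they went from 4 to 0 with the block 303 with median-ratio scaling, 197 with quantile normalization, 220 with array weights and 627 with protein-coding TPM. Median-ratio scaling called 1048 higher and 2364 lower at the 2-cell stage, against 1082 and 1005, and protein-coding TPM 2222 and 1335. Over the stages protein-coding TPM called 6483 higher and 4936 lower after ICSI, against 7246 and 7687. In the shallowest library, ICSI 2-cell replicate 1, 3 reads of a gene of 2 kb are 0.396 TPM.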
